A study of Mus musculus with 41 samples.

Results

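Broad domains of trimethylated histone H3 lysine 4 (H3K4me3) that carried no trimethylated lysine 27 (H3K27me3) were examined in 2 kinds of mouse chondrocyte, the cells of cartilage. The group lists of H3K4me3 regions of both cell types were merged over chromosomes 1 to 19. A merged region was kept when it was 4000 bp or wider and shared 0 bp with either group list of H3K27me3. This left 549 domains of 18542 merged regions. Another 279 regions of that width overlapped H3K27me3, and 12964 narrower regions did not. The domains were thus chosen by H3K4me3 width and H3K27me3 overlap in the same libraries, so the values of these marks are given as a description and were not tested.

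Hypertrophic chondrocytes (HC) came from cartilage of embryos at E15.5 that carried the Cre transgene Tg(Col10a1-cre)1427Vdm together with the reporter allele Gt(ROSA)26Sortm1(EYFP)Cos, with 2 libraries for each of 6 histone marks. Proliferating chondrocytes (PC) came from cartilage of embryos at E13.5 that carried Tg(Col2a1-cre)1Star and the same reporter allele, with 3 libraries for each mark. The reporter is a yellow fluorescent protein in the Rosa26 locus, and the Cre is driven by the promoter of a hypertrophic collagen gene in HC and of a general cartilage collagen gene in PC. Cells were sorted by flow cytometry, and chromatin immunoprecipitation with sequencing was done with low-input kits. Cell type, age and strain change together and cannot be told apart. Nothing in the labels ties a library to its own litter or pool, so the p-values cover the spread among the libraries at hand, part of which may be technical.

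H3K4me3 is placed by the SET1 and MLL family of methyltransferases at the starts of active or poised genes and is usually confined to a short stretch. At a subset of genes it spreads over several kilobases into the gene. Such broad domains are known from many tissues to lie at genes that define the cell and at regulators of growth, and they are read apart from the domains in which H3K27me3, the mark of Polycomb repression, lies on the same promoter. H3K9ac and H3K27ac accompany active promoters, H3K36me3 follows elongating RNA polymerase along the gene, and H3K9me3 marks heterochromatin.

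The sequence just before the gene start is shown for genes of the widest pair of domains (Tnrc18 and Bahcc1). It is also shown for the widest pair at cartilage genes that have an entry in the promoter table (Col11a1 and Hapln1). The last is Prickle1, whose H3K9ac was called lower in HC, a call lost under several of the alternatives given below. Each run is the 250 bases before the start, 5′ to 3′ on the gene's strand, from RefSeq on GRCm38.p6, with CG dinucleotides in capitals.
Tnrc18, chr5:142817663-142817912, minus strand: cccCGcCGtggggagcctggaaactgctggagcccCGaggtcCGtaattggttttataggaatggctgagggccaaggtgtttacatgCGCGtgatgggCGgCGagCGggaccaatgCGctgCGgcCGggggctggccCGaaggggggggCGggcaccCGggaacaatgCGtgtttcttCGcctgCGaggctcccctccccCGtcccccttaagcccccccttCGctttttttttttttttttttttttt
Bahcc1, chr11:120232697-120232946, plus strand: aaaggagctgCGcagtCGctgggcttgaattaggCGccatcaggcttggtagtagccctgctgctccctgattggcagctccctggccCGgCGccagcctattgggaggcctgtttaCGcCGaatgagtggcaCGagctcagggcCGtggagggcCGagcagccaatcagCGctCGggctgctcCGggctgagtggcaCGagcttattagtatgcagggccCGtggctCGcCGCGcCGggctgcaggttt
Col11a1, chr3:114030290-114030539, plus strand: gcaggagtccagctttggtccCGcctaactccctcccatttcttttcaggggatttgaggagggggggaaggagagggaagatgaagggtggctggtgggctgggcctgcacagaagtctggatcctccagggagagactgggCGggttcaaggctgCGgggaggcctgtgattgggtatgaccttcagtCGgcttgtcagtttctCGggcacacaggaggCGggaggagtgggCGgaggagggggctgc
Hapln1, chr13:89540386-89540635, plus strand: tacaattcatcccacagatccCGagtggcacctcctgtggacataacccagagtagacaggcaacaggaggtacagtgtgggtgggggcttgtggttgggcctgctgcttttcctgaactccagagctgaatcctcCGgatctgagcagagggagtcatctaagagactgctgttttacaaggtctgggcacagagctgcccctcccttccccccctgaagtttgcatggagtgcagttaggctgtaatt
Prickle1, chr15:93595903-93596152, minus strand: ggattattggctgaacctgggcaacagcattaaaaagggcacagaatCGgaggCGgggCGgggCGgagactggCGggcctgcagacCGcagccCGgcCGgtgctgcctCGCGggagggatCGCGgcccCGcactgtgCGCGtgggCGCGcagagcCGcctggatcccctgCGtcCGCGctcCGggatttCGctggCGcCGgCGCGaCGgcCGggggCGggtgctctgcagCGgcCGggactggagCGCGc
Prickle1 held 34 CG in this stretch, Tnrc18 held 20 and Bahcc1 held 19, against 7 in Col11a1 and 2 in Hapln1. Over the whole promoters of the table (300 bases, with 50 after the start) the median was 24 CG (interquartile range 16 to 33) in the 724 promoters that start inside the domains. It was 22 CG in 10287 promoters of narrower regions free of H3K27me3 and 3 CG in 17326 promoters with no H3K4me3 region. The cartilage and connective tissue genes lay mostly below that median, with 3 CG at Hapln1, 9 at Col11a1, 13 at Col1a2, 16 at Col11a2 and 0 at Col3a1, although Col5a1 held 34. The letters GGGCGG were present on either strand in 72.0% of promoters of the domains, against 67.7% of promoters of the narrower regions free of H3K27me3 and 36% of all 31396 promoters. CCAAT was present in 39.1% of promoters of the domains and 37.3% of all. TGANTCA was present in 3.18% of promoters of the domains, 3.99% of those of the narrower regions and 7.84% of all. ACAATG was present in 5.39% of promoters of the domains, 6.45% of those of the narrower regions and 12.2% of all. A match of letters is a description and shows no binding.

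Hairpins of microRNAs also lay inside domains, among them Mir140 in a domain within Wwp2, and Mir199a-2 and Mir214 in the domain of the long noncoding RNA gene Dnm3os. miR-140 is a microRNA of cartilage, and the miR-199a and miR-214 pair is known from skeletal mesenchyme. The mature forms in the RefSeq table are shown because the Mir140 domain had the greatest shortening in HC, whereas the cell types overlapped at the Dnm3os domain. The seed (bases 2 to 8) is in capitals.
mmu-miR-140-3p, chr8:107551288-107551308, plus strand: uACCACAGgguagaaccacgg
mmu-miR-199a-5p, chr1:162217844-162217866, plus strand: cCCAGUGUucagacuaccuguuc
mmu-miR-199a-3p, chr1:162217883-162217904, plus strand: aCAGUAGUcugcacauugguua
mmu-miR-214-5p, chr1:162223397-162223418, plus strand: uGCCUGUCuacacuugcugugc
mmu-miR-214-3p, chr1:162223438-162223459, plus strand: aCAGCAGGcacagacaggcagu
No seed was shared between these mature forms.

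The deposited lists hold coordinates with no score or read count, so sequencing depth is unknown and each value is the stretch of a domain or gene that a library's regions covered. H3K4me3 lists held 19418 and 22636 autosomal regions in HC libraries and 23618 to 32033 in PC libraries. PC replicate 7 was the least extensive of them, with 29.2 Mb covered against 31.1 and 38.7 Mb in HC and 41.7 and 45.3 Mb in the other PC libraries. The labels were checked over 1000 bp on each side of marker gene starts, or of either gene end where no start was given. For a gene with several such windows, the most covered one in each library was taken. The mean H3K4me3 coverage of the 11 chondrocyte markers was 68.2% and 64.3% in HC and 80.8%, 78.9% and 73.2% in PC. That of the 7 hypertrophic markers was 43.0% and 38.7% in HC and 58.8%, 55.9% and 56.2% in PC. In H3K27ac the 7 hypertrophic markers averaged 33.1% and 36.8% in HC and 71.4%, 61.6% and 57.3% in PC. Runx2 and Panx3 were at 0 in both HC libraries of that mark and covered in all PC libraries. Col10a1, the collagen gene that defines hypertrophic cells, was covered by H3K4me3 and by H3K27ac in HC replicate 5. It had 0 coverage of these marks in the other HC library of each and in all PC libraries. Col2a1, a chondrocyte marker, was at 0 in H3K27ac in PC replicates 3 and 5 and covered in both HC libraries. The mean H3K4me3 coverage of 5 muscle markers was 43.4% and 30.5% in HC and 22.9%, 28.3% and 16.0% in PC, with Myog at 0 in both HC libraries and Cdh15 at 0 in all PC libraries. Their mean H3K27ac coverage was 32.6% and 60% in HC and 27.1%, 11.1% and 0% in PC. In H3K27ac the 5 epidermis markers averaged 23.3% and 33.8% in HC and 11.8%, 7.79% and 17.8% in PC, and the 5 endothelium markers 16% and 45.1% in HC and 28.6%, 13.4% and 17.4% in PC. In H3K4me3 the 5 neural markers averaged 41.1% and 30% in HC and 67.1%, 72.2% and 35.1% in PC. The 4 blood markers found averaged 40% and 27.5% in H3K4me3 in HC and 27.8%, 32.4% and 17.5% in PC. Of them, Csf1r and Ptprc were at 0 in H3K4me3 in every library, and the others were covered in every library. In H3K27ac, Csf1r was covered in HC replicate 7. The part of other cells in the results was not tested. No domain held a start of a gene on the muscle, endothelium, blood, epidermis or neural lists. Only 3, 7, 4, 10 and 12 genes of these lists, in that order, had an H3K4me3 region. Of all protein-coding genes with such a region 4.87% lay in a domain, so a count of 0 in lists this small shows nothing about other cells.

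The domains were mostly at genes. A gene start or, where the table gave no strand, a gene end lay inside 525 of the 549 domains (95.6%), against 68.4% of the narrower regions free of H3K27me3. At least 2 genes lay in 198 domains (36.1%, against 14.8% of the narrower regions), and 127 held genes on both strands (23.1%, against 10.8%). A long noncoding RNA gene lay in 118 domains (21.5%, against 10.4%). The 279 regions of the same width with H3K27me3 stood closer, with a gene in 91.0%, at least 2 genes in 32.6%, both strands in 16.8% and a long noncoding RNA gene in 30.1%. Wider windows hold more starts, and no test was run on these shares.

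The gene content was set beside lists of genes by function. The lists and the domains were chosen with earlier results of these data known, so the shares are a description and were not tested. Of 12665 autosomal protein-coding genes with an H3K4me3 region, 617 (4.87%) lay in a domain. Among genes of the Hedgehog, BMP, TGF-beta and Wnt pathways the count was 21 of 45 (46.7%). It took in the receptors Bmpr1a, Bmpr2, Fzd1, Fzd2 and Fzd7, the ligands Bmp5, Tgfb2 and Tgfb3, the inhibitors Smad6, Smad7, Ski and Sufu, the transcription factors Gli2, Gli3, Smad3 and Tcf7l2, the Wnt effector Ctnnb1, the co-repressor Tgif1, and the targets Id1, Id2 and Id3. Among immediate early and stress-response factors it was 16 of 40 (40%), with Zfp36l1 (8000 bp) and Dusp6 (6400 bp), an RNA-decay factor and a phosphatase of the ERK kinases, the widest. Among RNA-binding and splicing genes it was 14 of 40 (35.0%), led by Ptbp1 at 6800 bp and Hnrnpa2b1 at 6400 bp. Among cytoskeleton and adhesion genes it was 9 of 27 (33.3%), led by Marcks at 7200 bp, which encodes a membrane-bound regulator of actin.

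The lists specific to cartilage and bone had fewer genes in domains than the 4 lists above. Of 26 cartilage matrix and early chondrocyte genes with H3K4me3, 4 (15.4%, against 4.87% of all protein-coding genes) lay in a domain: Trps1, a GATA-type transcription factor of chondrocytes, Col11a1 and Col11a2, which encode chains of the type XI collagen of cartilage fibrils, and Hapln1, the link protein that holds aggrecan on hyaluronan. Another 9 of the 26 lay in regions of that width that overlapped H3K27me3, against 266 of all 12665 protein-coding genes with H3K4me3. So did 10 of 40 immediate early factors, 7 of 45 signalling genes and 5 of 21 osteoblast and perichondrium genes. Of 19 hypertrophic genes, only Vegfa, the angiogenic growth factor, lay in a domain (5.26%), and 4 lay in broad regions with H3K27me3. Of 21 osteoblast and perichondrium genes, 5 lay in a domain (23.8%), namely Col1a1, Col1a2, Col3a1, Col5a1 and Fn1. The remaining lists gave 9 of 42 growth inhibitors, led by Nfib and Arid1a, 8 of 48 histone-modifying genes, led by Setd1b and Brd2, 4 of 24 hypoxia and glycolysis genes and 4 of 29 cell cycle genes, among them the cyclin gene Ccnd1.

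**Figure D1:**
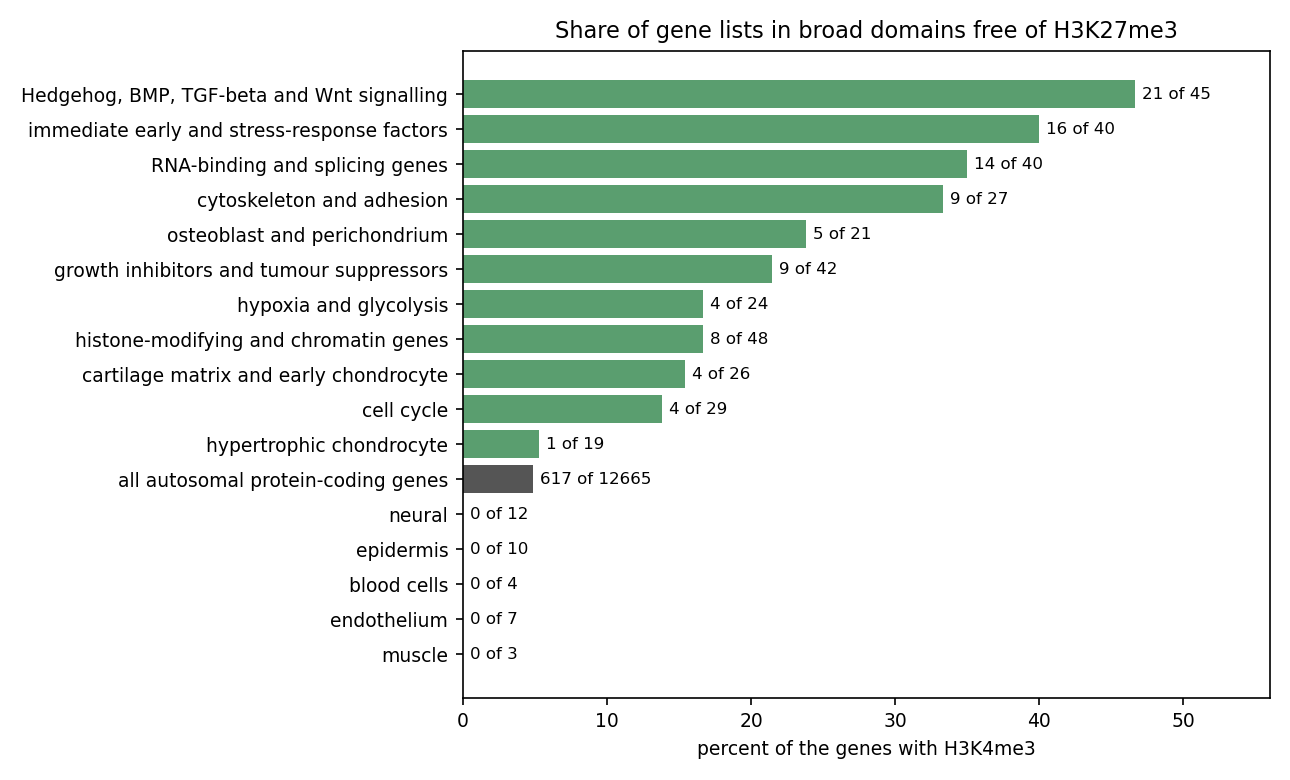
Horizontal bars give, for each gene list, the percent of its genes with an H3K4me3 region that lie in a broad domain free of H3K27me3; the grey bar is all autosomal protein-coding genes. The signalling list stands highest at 46.7%, and all protein-coding genes stand at 4.87%. The 5 lists of other cell types, with 3 to 12 such genes each, stand at 0. The lists were chosen with earlier results of these data known.

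The domains had a median width of 4600 bp and covered 2.79 Mb. Most were near the threshold: 89 were 4000 bp wide, 95 reached 6000 bp and 27 reached 8000 bp. Just inside it, Ino80d, Fbxo36 and Dtymk lay in regions of 4000 bp, and just outside it Map4k4, Cflar and Arpc2 lay in regions of 3800 bp. The widest, of 12800 bp, lay at Tnrc18 on chromosome 5 (chr5:142811401-142824200), which encodes a nuclear protein with a BAH domain. H3K4me3 covered 12600 and 11600 bp of it in HC replicates 2 and 5, and 12800, 12800 and 12600 bp in PC replicates 1, 2 and 7. The next, at the BAH-domain gene Bahcc1 (chr11:120229601-120241400), had 11800 and 10400 bp covered in HC and 11800, 11800 and 11200 bp in PC. Both were thus covered over most of their width in every library, and HC replicate 5 was the shortest.

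The other widest domains lay at the insulin and IGF receptor adaptors Irs1 (11400 bp) and Irs2 (9800 bp), at the H3K4 methyltransferase gene Setd1b (10800 bp) and at Tns2, which encodes a focal adhesion protein (10600 bp). They also lay at Smad7, an inhibitor of TGF-beta signalling (9800 bp), at Gm51670, in whose domain the hairpin of Mir125b-1 lay (9800 bp), and at Col1a1 (9600 bp). Hes7, Gm38709 and Irf2bp2 tied at 9200 bp. At Irs1, H3K4me3 covered 10600 and 10800 bp in HC and 11400, 11400 and 11000 bp in PC, so the groups did not overlap. At Setd1b it covered 10800 and 10600 bp in HC and 10800, 10800 and 10400 bp in PC, and the groups overlapped. At Tns2 it covered 9200 and 8800 bp in HC and 10600, 10600 and 9400 bp in PC, with both HC libraries below all PC libraries.

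Reach was measured in the 196 domains with a single gene, protein-coding and with only 1 start in H3K4me3 regions. The other domains were left out. These 196 extended mainly into the gene. Their median reach was 3464 bp downstream and 1180 bp upstream of the start, and 185 (94.4%) reached farther downstream. In 4550 such narrower regions free of H3K27me3 the reach was 1194 and 567 bp, and 91.2% reached farther downstream. H3K36me3 covered a mean of 13.1% of the first 500 bp after the start in HC (12.6% and 13.7%) and 14.5% in PC (9.07% to 17.5%), against 6.25% in HC and 7.48% in PC in the narrower regions. In the next 500 bp it covered 28.5% in HC and 30.1% in PC of the domains, against 13.9% in HC and 14.9% in PC of the narrower regions. At 4.25 kb it covered 71.8% in HC and 73.7% in PC, where H3K4me3 still covered 26.2% in HC (17.5% and 34.9%) and 32.1% in PC (14.3% to 42.3%). In the narrower regions H3K36me3 at 4.25 kb was nearly as high, 69.0% in HC and 67.2% in PC, and H3K4me3 there was 1.3% in HC and 1.66% in PC. H3K4me3 and H3K36me3 thus met over a longer stretch in the domains, as their selection by width would give.

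**Figure D2:**
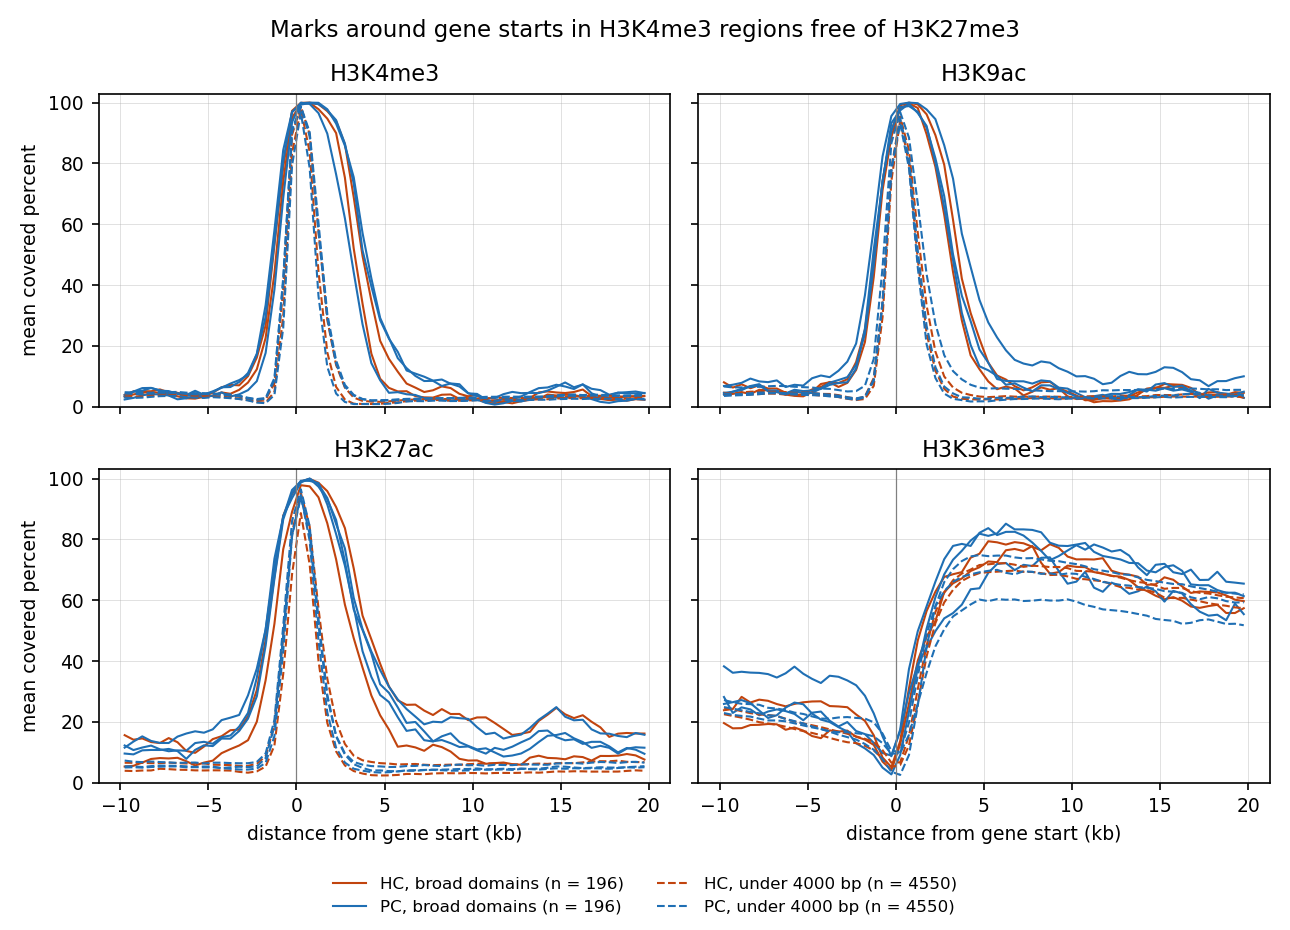
Lines give the mean covered percent of 500-bp bins against distance from the gene start in kb (positive values lie inside the gene), 1 line per library. The marks are H3K4me3, H3K9ac, H3K27ac and H3K36me3. Solid lines are the 196 broad domains with a single gene, protein-coding and with only 1 start in H3K4me3 regions. Dashed lines are 4550 such narrower regions free of H3K27me3, with HC in red and PC in blue. The solid lines of the first 3 marks stay high farther into the gene than the dashed ones, while H3K36me3 climbs in both and starts higher in the domains.

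The other marks were not used by the rule. Every domain was touched by H3K9ac and by H3K27ac in every library, 549 of 549, against 98.7% of 4679 regions of 2000 bp up to 4000 bp free of H3K27me3 and 93.5% of the 279 broad regions with H3K27me3. From 2000 bp on, mean H3K9ac was lower in wider classes in HC and nearly level in PC, and mean H3K27ac was higher in wider classes, each by a few points. H3K9ac covered 86.4% in HC and 90.9% in PC of the 95 domains of 6000 bp or more, 88.9% in HC and 90.8% in PC of the 454 domains of 4000 bp up to 6000 bp, and 90.3% in HC and 91.1% in PC of the regions of 2000 bp up to 4000 bp. H3K27ac covered 90.3% in HC and 92.7% in PC of the widest class, 89.1% in HC and 91.9% in PC of the next and 88.1% in HC and 91.1% in PC of the regions under 4000 bp. H3K36me3 was higher in wider domains, with 41.7% in HC (37.5% and 45.8%) and 42.9% in PC (39.0% to 47.8%) at 6000 bp or more, against 16.4% in HC and 16.7% in PC at 2000 bp up to 4000 bp. Around the domains, H3K27ac covered 9.65% and 18.8% of the 10 kb on each side in HC and 19%, 13.9% and 15.7% in PC, and around the narrower regions 6.08% and 11.3% in HC and 11.5%, 8.30% and 9.45% in PC. In each library the flanks of the domains were more covered than those of the narrower regions. The flanks of the broad regions with H3K27me3 were covered over 11.2% and 13.9% in HC and 19.6%, 14.8% and 15.4% in PC, higher than those of the domains in HC replicate 5 and PC replicates 3 and 5.

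**Figure D3:**
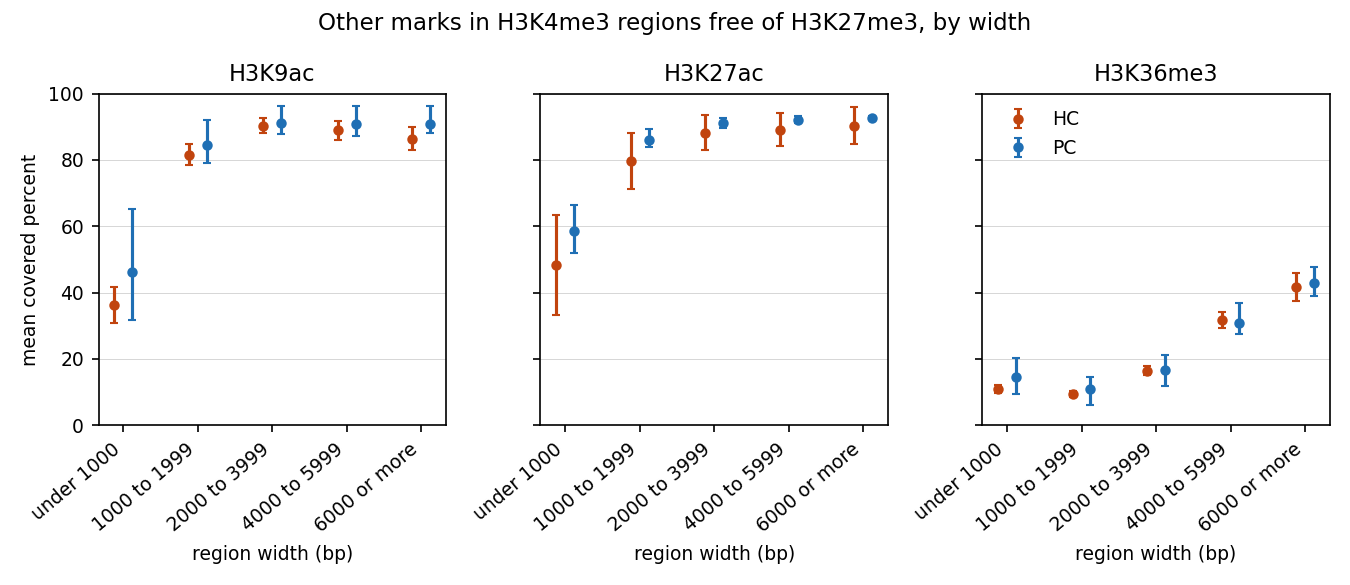
Points give the mean covered percent of H3K4me3 regions free of H3K27me3 in each width class for H3K9ac, H3K27ac and H3K36me3, HC left of PC, and bars run from the lowest to the highest library. From 2000 bp on, the 2 acetylation marks lie between 86.4% and 92.7% on average, and H3K36me3 stands at 41.7% in HC and 42.9% in PC in the widest class.

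The group lists of H3K27me3 hold what libraries share, so single libraries could still touch a domain. H3K27me3 touched 1.82% and 6.01% of the domains in HC libraries and 4.55%, 5.46% and 2.91% in PC libraries, and 472 of the 549 were untouched in all 5. A single domain was touched in both HC libraries and 1 in all 3 PC libraries. H3K9me3 touched 0.729% and 1.64% of the domains in HC and 1.46%, 2.19% and 28.4% in PC, the last in PC replicate 6, whose list also touched 12.5% of the narrower regions.

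Not every domain was broad in both cell types. In the group lists, 314 of the 549 domains had 4000 bp or more covered in both HC and PC. Another 169 reached it in HC alone, 42 in PC alone and 24 in neither. The HC list covered more of the domain at 360, the PC list at 132, and they were equal at 57. The PC list was drawn from more libraries than the HC list, PC replicate 7 among them. The effect of this was not tested. In single libraries the H3K4me3 lengths of the cell types overlapped at most domains. The median covered length was 4600 and 4400 bp in HC and 4600, 4600 and 4200 bp in PC. The covered part was 1 unbroken region in 90.3% and 80.5% of the domains in HC and in 89.1%, 91.4% and 70.9% in PC, PC replicate 7 being the most broken. Both HC libraries lay above all PC libraries at 45 domains (8.2%, against 6.49% of all 18542 regions) and below them at 44 (8.01%, against 7.58% of all), and the groups overlapped at 460. A shorter region in every cell and one present in fewer cells cannot be told apart in sorted bulk cells.

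Cartilage genes stood among the domains that were shorter in HC. All 4 on the cartilage list had both HC libraries below all PC libraries in H3K4me3 length, with a median difference (HC minus PC) of -1750 bp, against 133 bp over the 549 domains. The domain with the greatest shortening (chr8:107544401-107552800) lay within Wwp2 and held Mir140, with 7000 and 4000 bp covered in HC and 8400, 8400 and 8200 bp in PC. At Col11a1 (chr3:114029601-114037000) the lengths were 6400 and 4200 bp in HC and 7400, 7400 and 7200 bp in PC. At Hapln1 (chr13:89538401-89544200) they were 4800 and 2400 bp in HC and 5800, 5600 and 5400 bp in PC. HC replicate 5 was the shortest library at each of them, and HC replicate 2 also lay below every PC library. A domain within Auts2 (5600 and 3400 bp in HC, 6200 bp in each PC library) and that of Trps1 (8200 and 6000 bp in HC, 8600 bp in each PC library) had the same order. At Col11a2 the lengths were 3800 and 3200 bp in HC and 4600 bp in each PC library. By contrast the Dnm3os domain with Mir199a-2 and Mir214 had 7200 and 7000 bp in HC and 7200, 7200 and 6800 bp in PC, with overlapping groups. The Vegfa domain also overlapped, with 5800 bp in each HC library and 5800, 5800 and 5200 bp in PC.

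The domains that were longest in HC relative to PC included both type I collagen genes, whose product is the main fibre of bone and perichondrium. At Col1a2 (chr6:4504801-4512000) H3K4me3 covered 7200 bp in each HC library and 6800, 5800 and 4000 bp in PC. At Col1a1 (chr11:94933001-94942600) it covered 9600 and 9000 bp in HC and 9000, 9000 and 5400 bp in PC. The groups did not overlap at Col1a2 and met at Col1a1, and PC replicate 7 was the lowest at both. At Ankrd50 the lengths were 5400 and 5200 bp in HC and 4200, 4400 and 3000 bp in PC. A domain within Cdon, a co-receptor of Hedgehog signalling, had 7000 and 6800 bp in HC and 6800, 5600 and 4200 bp in PC. A domain on chromosome 19 with no annotated gene (chr19:12005001-12013600) had 8600 and 7800 bp in HC and 7200, 7000 and 6400 bp in PC. Without PC replicate 7 both HC libraries still lay above the other PC libraries at Col1a2, at Ankrd50 and on chromosome 19. The other connective tissue genes, Col3a1, Col5a1 and Fn1, had overlapping groups, with 4600 bp in each HC library and 4600, 4600 and 3400 bp in PC at Col3a1.

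**Figure D4:**
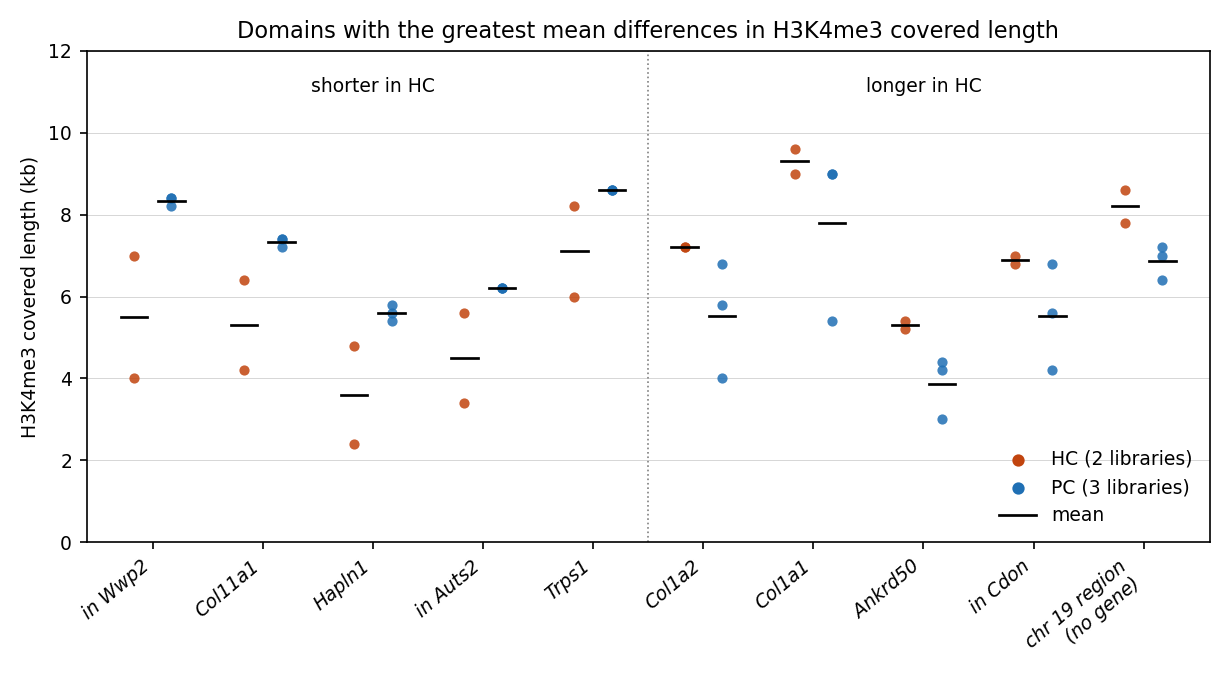
Points give the H3K4me3 covered length in kb of each library for the 5 domains with the greatest mean shortening in HC (left of the dotted line) and the 5 with the greatest mean lengthening (right), HC left of PC, with black bars at the means. The HC points at the Wwp2 domain lie at 7.0 and 4.0 kb, below PC points between 8.2 and 8.4 kb.

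The Rosa26 locus, Gt(ROSA)26Sor, into which the reporter is inserted in both strains, also lay in a domain (chr6:113075601-113080000). H3K4me3 covered 4400 bp of it in each HC library and 3200 bp in each PC library, a difference with no spread in either group. No PC library reached 4000 bp there, so the domain met the width rule through HC.

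Acetylation was tested with limma over all regions covered in at least 2 of the 5 libraries, with Benjamini-Hochberg adjustment at 0.05. H3K9ac in 549 domains was called lower in HC at 8 (1.46%, against 2.06% of all 16091 regions) and higher at 1 (0.182%, against 0.553% of all). The groups did not overlap at 75 domains with HC below (13.7%, against 8.22% of all) and 18 with HC above (3.28%, against 3.73%). The median difference was -0.83 percentage points over the domains and 0.00 over all regions, and the mean difference was -2.41 over the domains and -3.40 over all regions. With 1 prior spread for all regions, a setting chosen after the data were seen, 3 domains were lower (0.546%, against 1.95% of all) and 1 was higher (against 0.528%). At an unadjusted p under 0.05, 49 were lower (8.93%, against 6.47%) and 11 higher (2%, against 2.48%). Over all regions 331 were lower and 89 higher; with each library centred 98 were lower and 0 higher, and no domain was called. Without HC replicate 2 the calls in the domains were 40 lower and 0 higher, without HC replicate 3 they were 22 and 2, without PC replicate 1 they were 6 and 6, and without PC replicate 3 they were 9 and 2.

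Prickle1, a gene of planar cell polarity, fell in H3K9ac, to 59.1% and 54.5% of the domain in HC against 100%, 95.5% and 100% in PC (chr15:93592601-93597000). The difference was -41.7 points (SE 2.49, limma adjusted p = 0.00793). Cnnm4, a magnesium transporter gene, fell to 57.1% and 60.7% in HC against 100%, 100% and 92.9% in PC, a difference of -38.7 points (SE 3.18, limma adjusted p = 0.0245). Both HC libraries lay far below all PC libraries at both genes. Rbpj, the DNA-binding factor of Notch signalling, fell to 85% in each HC library against 95% in each PC library (-10.0 points, SE 0.581, limma adjusted p = 0.00446), a difference of 2 steps of the 200-bp grid with identical values within each cell type. The reporter locus Gt(ROSA)26Sor rose to 95.5% and 90.9% in HC against 72.7% in each PC library (20.5 points, SE 1.73, limma adjusted p = 0.0208). That domain met the width rule through HC H3K4me3, so HC set its window and the rise is not independent of the rule. At each of the 4 genes the difference kept its sign under all alternatives. The call at Cnnm4, at Rbpj and at Gt(ROSA)26Sor was lost without any 1 of the 5 libraries, and that at Prickle1 without any but HC replicate 2. With the replicate number as a block all 4 calls were lost, at limma adjusted p = 0.242 for Prickle1, 0.317 for Cnnm4, 0.0973 for Rbpj and 0.248 for Gt(ROSA)26Sor. Over all alternatives the limma adjusted p ran from 0.00759 to 0.242 at Prickle1, from 0.0125 to 0.317 at Cnnm4, from 7.6e-05 to 0.903 at Rbpj and from 0.0106 to 0.570 at Gt(ROSA)26Sor. The other 5 calls, among them a domain within Aopep (93.9% in each HC library, 100% in each PC library) and Bicra (95% and 100%), likewise rested on 1 or 2 grid steps with identical values within each cell type.

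Larger differences of H3K9ac did not pass the test. At Bmp5, a BMP ligand gene, H3K9ac covered 48% and 24% in HC and 100%, 80% and 76% in PC (-49.3 points, SE 12.2, limma adjusted p = 0.310). At Hapln1 it covered 58.6% and 31.0% in HC and 93.1%, 89.7% and 89.7% in PC (-46.0 points, SE 9.69, limma adjusted p = 0.292, from 0.00768 without HC replicate 2 to 0.544 over the alternatives). At Col11a1 it covered 86.5% and 48.6% in HC and 100%, 97.3% and 97.3% in PC (-30.6 points, limma adjusted p = 0.689). In these genes the HC libraries differed widely from each other, and both lay below all PC libraries. All 4 cartilage-list domains had that order, with a median difference of -28.0 points, and 0 of 4 were called. The order was found at 8.22% of all regions, 13.7% of the domains and 52.3% of the domains with H3K4me3 shorter in both HC libraries. H3K4me3 was shorter in both HC libraries at all 4, so PC set more of the window and their H3K9ac order is not independent of the rule. In H3K27ac 1 of the 4, Col11a2, had both HC libraries below (against 9.36% of all), and along the gene body 2 of 4 did in H3K36me3 (against 9.04%). At Tox and Tns2 both HC libraries were also below, with 55% and 60% in HC and 100%, 90% and 100% in PC at Tox (limma adjusted p = 0.0611). On the high side, Spry1, an inhibitor of receptor tyrosine kinase signalling, had 81.8% and 90.9% in HC and 68.2%, 50% and 63.6% in PC. Cd3eap had 100% in each HC library and 76.2%, 81% and 71.4% in PC, Col4a1, a basement membrane collagen gene, 95.2% and 81% in HC and 57.1%, 66.7% and 71.4% in PC, and Ahnak 100% and 96% in HC and 88%, 68% and 76% in PC. None of these 4 passed (limma adjusted p from 0.109 at Cd3eap to 0.548 at Ahnak).

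H3K27ac in 549 domains was called lower in HC at 8 (1.46%, against 0.607% of all 16467 regions) and higher at 1 (0.182%, against 0.0425%). The groups did not overlap at 53 domains with HC below (9.65%, against 9.36% of all) and 32 with HC above (5.83%, against 4.46%), and the median difference was -2.17 points over the domains and -2.63 over all regions. At an unadjusted p under 0.05, 24 were lower (4.37%, against 5.64% of all) and 6 higher (1.09%, against 1.8%). All 9 calls rested on 1 grid step with identical values within each cell type. Gtf2a1 and Btf3l4, for example, fell to 95% in each HC library against 100% in each PC library (-5.00 points), and Lrp1, Gtf2i and Gm35364 fell by 4.76, 4.35 and 4.35 points. Ehd1 rose to 100% in each HC library against 95.2% in each PC library. Over all regions 100 were lower and 7 higher, with equal covered length 159 and 190, and with each library centred 0 and 0. Without HC replicate 7 the calls in the domains were 94 lower and 3 higher, without HC replicate 5 they were 23 and 5, without PC replicate 3 or 8 they were 9 and 4, and without PC replicate 5 they were 13 and 2.

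With 1 prior spread none of those 9 domains was called, and 2 were lower (0.364%, against 2.17% of all regions) and 1 higher (0.182%, against 0.881%). Bmp5 had the greatest difference of all domains, with 32% and 24% in HC and 92%, 96% and 96% in PC (chr9:75775201-75780200). The difference was -66.7 points (SE 9.29, limma adjusted p = 0.137, and 0.00563 with 1 prior spread, from 0.003 to 0.389 over the alternatives). Adamts6, a metalloprotease gene, had 69.6% and 73.9% in HC and 100%, 95.7% and 100% in PC (-26.8 points, limma adjusted p = 0.256, and 0.0276 with 1 prior spread, from 0.0223 to 0.799 over the alternatives). Tnks1bp1 had 93.1% in each HC library and 72.4%, 75.9% and 75.9% in PC (18.4 points, limma adjusted p = 0.575, and 0.0243 with 1 prior spread, from 0.0243 to 0.799 over the alternatives). Adamts6, Tnks1bp1 and Fzd1 were named after their values were seen.

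Further H3K27ac differences were large but uneven between the HC libraries. At Fzd1, a Wnt receptor gene, H3K27ac covered 39.1% and 69.6% in HC and 100%, 100% and 95.7% in PC (-44.2 points, SE 11.8, limma adjusted p = 0.470). At Col11a2 it covered 43.5% and 69.6% in HC and 100% in each PC library (-43.5 points, SE 10.3, limma adjusted p = 0.395). At Pkm, the pyruvate kinase gene of glycolysis, it covered 47.6% and 71.4% in HC and 100%, 95.2% and 95.2% in PC (-37.3 points, limma adjusted p = 0.470). At Col1a2 it covered 72.2% and 97.2% in HC and 50%, 41.7% and 50% in PC (37.5 points, SE 13.3, limma adjusted p = 0.671), and at Spry1 95.5% and 100% in HC and 77.3%, 45.5% and 68.2% in PC. Over the alternatives the adjusted p ran from 8.62e-05 to 0.498 at Col11a2, from 0.00407 to 0.589 at Fzd1 and from 0.00791 to 0.799 at Pkm. All 3 passed without HC replicate 7, and Col11a2 also without HC replicate 5, at limma adjusted p = 0.00656. Both HC libraries were below all PC libraries at the first 3 genes and above them at Col1a2 and Spry1. Col4a1 and Mcl1, which encodes a survival factor of the BCL2 family, also had both HC libraries above.

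**Figure D5:**
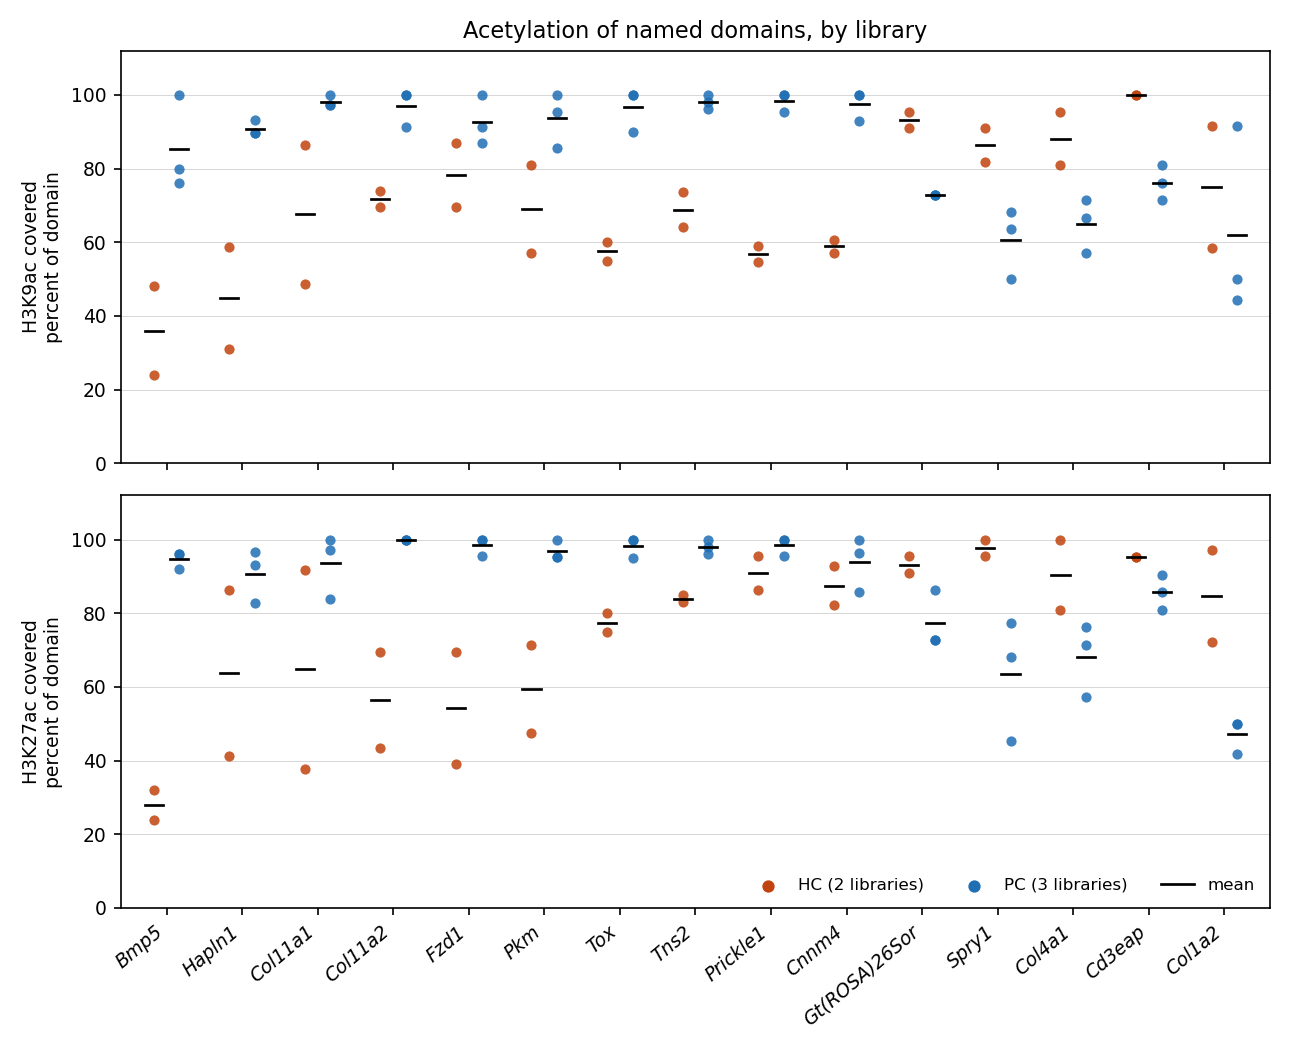
Points give the covered percent of named domains by H3K9ac (top) and H3K27ac (bottom) in each library, HC left of PC, with black bars at the means. At Bmp5 the HC points of H3K27ac lie at 32% and 24% and the PC points between 92% and 96%, whereas at Col1a2 the HC points lie above the PC points.

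The acetylation libraries are separate from the H3K4me3 libraries, and their order was set beside that of H3K4me3 as a description. Of the 44 domains with H3K4me3 shorter in both HC libraries, 23 (52.3%) had H3K9ac below in both and 11 (25%) had H3K27ac below in both, and 0 had either above. Of the 45 with H3K4me3 longer, 8 (17.8%) had H3K9ac above and 13 (28.9%) had H3K27ac above, with 1 and 2 below. Of the 460 others, 51 (11.1%) had H3K9ac below and 10 (2.17%) above, and 40 (8.70%) had H3K27ac below and 19 (4.13%) above. In the narrower regions free of H3K27me3 the corresponding shares were 15.1% of 919 for H3K9ac below with shorter H3K4me3 and 9.39% of 841 for H3K9ac above with longer H3K4me3. For H3K27ac they were 17.6% below and 10.8% above. The narrower regions span fewer steps of the 200-bp grid, and 3123 of them were under 1000 bp. Their shares are thus not matched for width with those of the domains. All 3 marks were below in both HC libraries at 6 domains, those of Tns2, Fibin, Bmp5, Adamts6, Col11a2 and Tox. All 3 were above at 5, those of Spry1, Gt(ROSA)26Sor, Ppp1r12a, Cd3eap and Col4a1. The Gt(ROSA)26Sor domain met the width rule through HC. Those of Tox and Col11a2 reached 4000 bp in no HC library and met it through PC. In the group lists 169 domains reached 4000 bp in HC alone and 42 in PC alone. The order at such domains, and the shares above, are thus not independent of the rule.

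By list, the signalling domains had 5 of 21 with H3K9ac below and 3 of 21 with H3K27ac below in both HC libraries, and 0 above for either. Over all regions the shares below were 8.22% for H3K9ac and 9.36% for H3K27ac, and the shares above 3.73% and 4.46%; no list was tested against them. The 1 signalling domain called for H3K27ac, at Gli3, the Hedgehog pathway repressor, was among the calls of 1 grid step. The growth inhibitors had 0 of 9 below or above in H3K9ac and 1 of 9, Foxo3, below in H3K27ac. The RNA-binding genes had 0 of 14 below or above in H3K9ac and 1 of 14 above in H3K27ac. Of the 4 cell cycle domains, that of Ccnd1 had HC below in both H3K4me3 length and H3K9ac. Cytoskeleton genes had 2 of 9 above in H3K9ac, Ahnak and Lmna, and 0 below.

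H3K9me3 was tested in 14 domains that it covered in at least 2 libraries. With limma 0 of 14 were called, against 0.105% of 2853 regions higher and 0.245% lower, and at an unadjusted p under 0.05 there were 1 higher (7.14%, against 1.82% of all) and 0 lower (against 7.61%). With 1 prior spread 1 was higher (7.14%, against 1.3% of all) and 0 lower (against 4.24%). That domain, at Tspyl1, had 22.7% and 18.2% in HC and 0% in each PC library (20.5 points, SE 5.22, limma adjusted p = 0.288, and 0.0164 with 1 prior spread, from 0.0164 to 0.773 over the alternatives). It was also called without PC replicate 2, 3 or 6. Zcwpw1 had 0% in each HC library and 4.76% in each PC library. Tspyl1 was the 1 domain with HC above (against 3.15% of all) and Zcwpw1 the 1 with HC below (against 11.4%). The count of domains called lower was 3 without PC replicate 2 or 3 and 2 without PC replicate 6.

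H3K36me3 was tested along 13194 gene bodies, of which 584 belong to genes of the domains. With limma 0 of them were called, against 0% of all genes. With 1 prior spread 0 of them were called too, against 0.0379% of all higher and 0.0682% lower. Unadjusted p-values under 0.05 were found for 15 genes of the domains with HC higher (2.57%, against 2.87% of all) and 14 with HC lower (2.40%, against 3.55%). The groups did not overlap at 46 genes with HC above (7.88%, against 8.31%) and 36 with HC below (6.16%, against 9.04%), and the median difference was 2.45 points over these genes and 2.04 over all. Gene bodies at Hapln1 and Cited2 stood out in size. Hapln1 was covered over 13.46% and 16.8% in HC and 91.8%, 85% and 72.7% in PC (-68.0 points, SE 9.74, limma adjusted p = 0.104, and 0.0492 with no filter on low values, its lowest over the alternatives, the highest being 0.716). Cited2, a transcriptional co-regulator gene of 2447 bp, was covered over 100% and 68.4% in HC and 0% in each PC library (84.2 points, SE 11.7, limma adjusted p = 0.0920, and 0.0258 with no filter, its lowest, the highest being 0.371). Short genes such as Cited2 span few 800-bp steps of the H3K36me3 grid.

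Bmp5, Tox, Fibin and Sox11 also had HC below. Bmp5 was covered over 19.2% and 57.6% in HC and 91.2%, 73.2% and 80.3% in PC, Tox over 25.2% and 55.3% in HC and 84.7%, 68.5% and 80.7% in PC, and Sox11, a SOX transcription factor gene, over 39.4% and 48.9% in HC and 77.3% in each PC library. Phlda1, Tbcc, Fhod1 and Rhbdd3 had HC above, with 61.3% in each HC library and 0%, 0% and 27.5% in PC at Phlda1. None of these 8 passed the test. Hapln1, Bmp5, Tox and Fibin thus had both HC libraries below all PC libraries in H3K4me3 length, H3K9ac and gene-body H3K36me3. Of these domains, that of Hapln1 alone had overlapping groups in H3K27ac.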

How the data were processed

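Regions of 6 histone marks in sorted mouse chondrocytes were analysed from 30 lists of single libraries and 12 group lists. The values in the deposited lists are coordinates (unit: other) with no count, score or signal, so depth is unknown. Per the submitters' processing notes, FastQC, Picard and mm10 were used; the caller is not given in the sources used here. The deposited group lists held all of the intersection rebuilt from the libraries and more: the rebuilt part was 99.4% (HC) and 98.9% (PC) of the H3K4me3 lists and 89.2% (HC) and 95.3% (PC) of the H3K27me3 lists. The 11 IgG samples were not analysed here.

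Covered bp per domain or gene body were computed in Python 3.11.15 with pandas 2.3.3. Genes, promoters and microRNAs came from RefSeq tables on GRCm38.p6, the assembly of mm10. limma 3.58.1 in R 4.3.3 (trend and robust settings, Benjamini-Hochberg) compared 2 HC with 3 PC libraries per mark. It was tested on simulated data with 200 planted changes per mark and recovered 50 for H3K9ac, 60 for H3K27ac, 50 for H3K9me3 and 125 for H3K36me3. The planted shift was larger than any acetylation difference in the domains. The simulated noise was normal and not bounded as a percent is, and spreads were shuffled among features. The recovery is thus no measure of power for the differences reported. The domains and gene lists were chosen with earlier results of these data known. Named genes are the widest domains, the greatest called or non-overlapping differences per mark and direction, members of the cartilage, hypertrophic and perichondrium lists, the widest of the other lists, the greatest differences in H3K4me3 length and the domains nearest the threshold. Others, such as Adamts6, Tnks1bp1, Fzd1, Foxo3, Lmna, Gli3, Ppp1r12a and the signalling genes named with no value, were chosen after their values were seen.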

Additional observations from a re-analysis of the deposited data

How the results depend on the processing

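The number of domains was 1661 at 3000 bp and 221 at 5000 bp. It stayed within 1.5 times of 549 with gaps of 1000 bp merged (595), with no H3K27me3 in any library (472), with H3K27me3 on up to 10% (557), with rebuilt intersections (502, added after seeing the data) and without a PC library (506 to 759, the highest without PC replicate 7); HC libraries were not left out there, since 1 list makes no intersection. The difference in median H3K4me3 length was 33.3 bp, and ran from -100.0 to 133.3 bp without 1 library. Domains called for H3K9ac were 0 higher and 0 lower with centred libraries and 3 lower with 1 prior spread; without 1 library they ran from 0 to 6 higher and 6 to 40 lower. For H3K27ac the higher calls were 2 with no filter, 0 with centring and 0 with equal covered length, the lower calls 0 with centring and 2 with 1 prior spread; without 1 library they ran from 2 to 5 and from 9 to 94. For H3K9me3, 1 was called higher with 1 prior spread, and without 1 library 0 to 1 higher and 0 to 3 lower; the fit with no filter could not be made. For H3K36me3, 1 gene was called higher and 1 lower with no filter. Centring reversed 6 differences, to 0.56 at Gtf2a1 and Btf3l4, 0.80 at Lrp1, 1.21 at Gtf2i and Gm35364 (H3K27ac) and 11.8 at Zcwpw1 (H3K9me3). Of 437 values of 43 named results, 362 kept direction and side of the threshold, 28 passed it anew and 41 lost it. The cause was not tested.

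The replicate numbers 2 and 3 occur in both cell types for H3K9ac. Their deviations correlated at -0.03 and 0.08. With 2 HC libraries the HC deviations mirror each other, so this check cannot tell whether the numbers pair the samples. With the replicate block 9 domains were called higher and 8 lower, and Prickle1, Cnnm4, Rbpj and Gt(ROSA)26Sor were not among those called. For the other marks no paired analysis was possible because the cell types share fewer than 2 numbers.

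With 2 against 3 libraries, 50 of 200 changes planted in simulated data were recovered for H3K9ac. The planted shift was larger than any H3K9ac difference in the domains, so this share is not the power for those differences. In the data, the fit called 1-step differences with identical values within groups and passed over larger ones with more spread, so a call is no guide to size. Coverage says where regions were called, not how much signal they held. Cell type, age and strain cannot be told apart.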
